A study of Rattus norvegicus with 12 samples.

Results

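Lcn2, Saa3, Hp, Cp and Lbp are 5 acute phase genes, that is, genes of secreted proteins that increase in inflammation. They were followed in the cells of bronchoalveolar lavage fluid (BALF) of rats that received lipopolysaccharide (LPS), hypobaric hypoxia or both. They are 5 of the 14217 genes that the Affymetrix array measures with at least 1 probe set naming that gene alone, and 7 of its 31099 probe sets. A probe set is the group of short probes that together report on 1 transcript. Lcn2, Saa3, Hp and Lbp each have 1 probe set and Cp has 3, of which the one with the highest mean was used and the other 2 served as a check. The genes were selected on their levels in these same 4 groups, so their levels and differences are given as a description and no test is attached to them.

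All animals were Sprague-Dawley rats of 8 weeks, described as male, and went without food and water during the experiment. The COMB group received 0.5 mg/kg of LPS into the tail vein and was then placed in a decompression chamber for 6 h at 405.35 mmHg, the equivalent of an altitude of 5000 m or of 11.2% oxygen. The LPS group received 0.5 mg/kg of LPS and stayed at normoxia. The HPO group had the 6 h of hypobaric hypoxia without LPS, and whether it had an injection of saline is not stated. The CTL group had a tail vein injection of saline at normoxia. Each group was measured on 3 arrays, and each array held pooled RNA, of 2, 2 and 3 rats in the COMB group by the sample labels and of 3 rats in every other pool. Pools are named by the numbers of their rats. Values are linear intensities of probe sets, and differences are on the scale of log2(intensity + 1) with the standard error of a limma fit over all 12 arrays. BALF is a mixture of cells, so a gene measured in its RNA cannot tell a higher level per cell from a larger share of cells that express the gene. The limma p-values given for other genes set a group difference against the spread between pools of RNA, not between single rats. That spread is estimated from all 4 groups and drawn toward that of all probe sets tested.

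The array medians lay between 32.72 and 35.61. The sum of 8 markers of recruited monocytes set the CTL pool of rats 5, 6 and 7 apart, at 2213, against 276 and 714 in the other CTL pools. Plac8, with a CTL mean of 649 ± 707 (SD, n = 3 pools), made up much of this sum. Cx3cr1 (38.4 ± 2.88), Ccr2 (7.78 ± 0.70) and F13a1 (9.43 ± 0.39) varied little between the CTL pools. Il1b, which was 1553 there and 138 and 167 in the other 2 CTL pools, stood apart in the same pool. Without this pool the difference between the COMB and CTL groups was 7.66 for Lcn2, 5.54 for Saa3, 4.22 for Hp, 5.09 for Cp and 2.95 for Lbp, against 7.46, 5.37, 3.98, 4.68 and 2.91 with it. The other differences from the CTL group without it stand beside their genes.

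The acute phase response is the change in secreted proteins that follows infection or injury. Cytokines such as IL-1, TNF and IL-6 drive it through the transcription factors NF-kB, C/EBP and STAT3, mainly in the liver for plasma proteins, while epithelial cells and white blood cells make some of the same proteins locally. In the lung, airway epithelium and neutrophils are known sources of LCN2, and the airway and alveolar lining makes haptoglobin and LBP. The 5 proteins act at different points. LCN2 withholds iron from bacteria by binding their siderophores, SAA3 is a serum amyloid A protein made mainly outside the liver, haptoglobin (Hp) binds free haemoglobin, ceruloplasmin (Cp) carries copper and oxidises iron, and LBP hands LPS to CD14 and the TLR4 receptor complex.

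The sequence upstream of the start is shown for Lcn2, Saa3 and Cp, because these factors act on promoters and because these 3 of the 5 genes matched the RefSeq promoter table, build GRCr8. Hp and Lbp did not match. Each line gives the 250 bases before the start, 5′ to 3′ in the direction of transcription, at chr3:36081781-36082030 (minus strand) for Lcn2, chr1:106358431-106358680 (minus strand) for Saa3 and chr2:104368420-104368669 (plus strand) for Cp. Capitals mark every match on either strand to the NF-kB motif, the C/EBP motif TTNNGNAA, the STAT motif TTCNNNGAA or the hypoxia response core ACGTG.
Lcn2: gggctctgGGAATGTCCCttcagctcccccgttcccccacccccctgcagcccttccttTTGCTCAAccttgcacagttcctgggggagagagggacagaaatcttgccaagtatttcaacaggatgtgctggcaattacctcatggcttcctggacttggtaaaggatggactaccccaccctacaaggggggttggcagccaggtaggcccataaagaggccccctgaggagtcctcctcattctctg
Saa3: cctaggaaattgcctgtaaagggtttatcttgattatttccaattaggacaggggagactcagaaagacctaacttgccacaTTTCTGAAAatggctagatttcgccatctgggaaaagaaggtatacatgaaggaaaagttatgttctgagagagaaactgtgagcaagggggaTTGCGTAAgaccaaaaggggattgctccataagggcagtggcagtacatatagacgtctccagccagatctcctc
Cp: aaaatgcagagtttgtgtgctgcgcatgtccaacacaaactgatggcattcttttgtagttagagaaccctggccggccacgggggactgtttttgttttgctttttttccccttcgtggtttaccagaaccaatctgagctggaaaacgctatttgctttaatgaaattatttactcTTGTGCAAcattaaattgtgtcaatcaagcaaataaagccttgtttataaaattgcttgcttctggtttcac
The Lcn2 window held 1 NF-kB match, 242 to 233 bases before the start, and 1 C/EBP match at 191 to 184. The Saa3 window held 3 C/EBP matches, of which those at 168 to 161 and 167 to 160 overlap and the one at 75 to 68 reads as the motif on both strands. The Cp window held 1 C/EBP match at 72 to 65. No window held the STAT motif or ACGTG. Of all 33469 promoters in the table, 6.33% held the NF-kB motif, 37.2% the C/EBP motif, 7.67% the STAT motif and 16.6% ACGTG in a window of the same length. A match is a description of the letters and not evidence of binding.

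Across the 4 groups, all 5 genes had their highest levels in the COMB group and their next highest in the LPS group, and no COMB or LPS pool of any of them lay as low as a CTL pool. The size of the step differed between genes. LPS alone gave most of the COMB difference, on the log2 scale, for Lcn2, Saa3 and Hp and less of it for Lbp, while for Cp the share depended on the probe set. Hypoxia alone left Lcn2, Saa3 and Cp within reach of the CTL pools, while Hp and Lbp lay above every CTL pool. For Saa3 and the brightest probe set of Cp the overlap came from the CTL pool of rats 5, 6 and 7 alone, and every HPO pool lay above the other CTL pools. Over all 25692 probe sets tested, 14.9% lay above without overlap in the COMB group against the CTL group, 11.3% in the LPS group against the CTL group, 15.4% in the COMB group against the LPS group and 9.03% in the HPO group against the CTL group. The limma fit called 19.1%, 2.04%, 11.9% and 0.035% of probe sets in these comparisons, at an adjusted p under 0.05 and in either direction. These shares stand beside the members as background, and nothing is read from them, since the members were chosen from these contrasts.

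**Figure D1:**
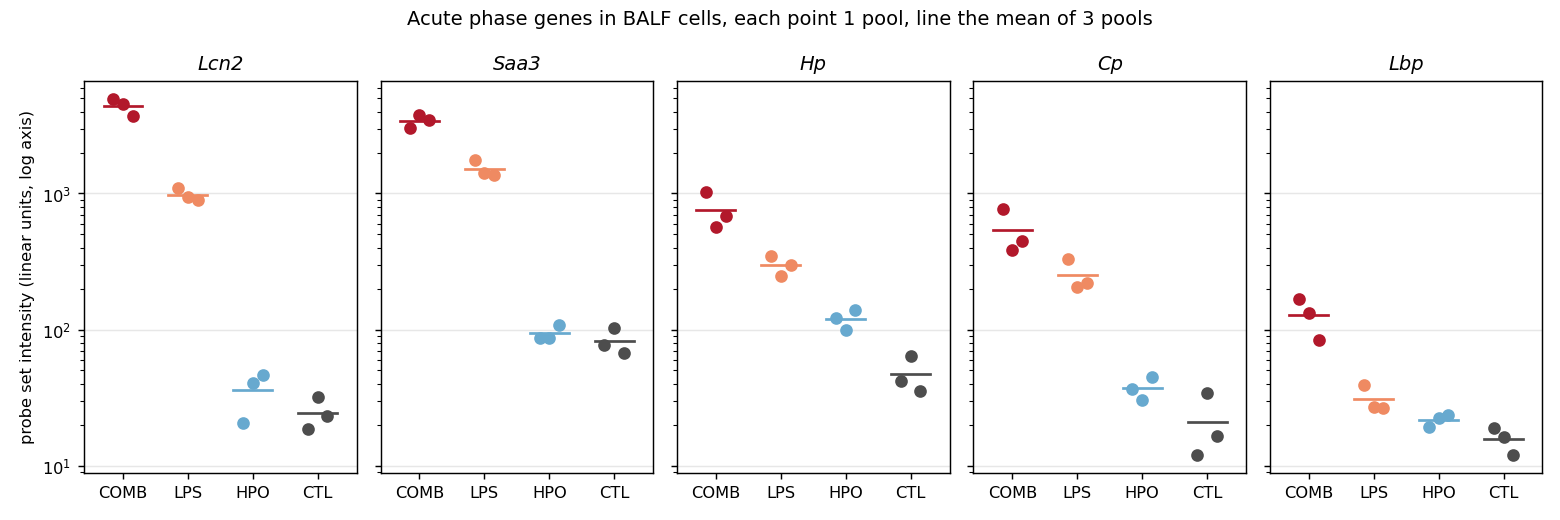
Intensity of the 5 acute phase genes in each pool of the COMB, LPS, HPO and CTL groups (log axis, linear units). Each point is 1 pool and each line the mean of 3 pools. COMB pools lie above LPS pools in all 5 panels, as with 3717 to 4960.5 in the COMB group and 888 to 1091 in the LPS group for Lcn2.

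Lcn2 showed the largest difference of all 12853 genes tested, both in the COMB and in the LPS group against the CTL group. Its intensity was 4960.5, 4547 and 3717 in the COMB pools (rats 2 and 3, then 10 and 11, then 12, 13 and 14). It was 1091, 945 and 888 in the LPS pools, 20.5, 40.5 and 46.0 in the HPO pools and 18.5, 31.9 and 23.0 in the CTL pools. The COMB pools lay above the LPS pools and these above all others, whereas the HPO and CTL pools overlapped. The means were 4408 ± 633 in the COMB group, 975 ± 105 in the LPS group, 35.7 ± 13.4 in the HPO group and 24.5 ± 6.84 in the CTL group (SD, n = 3 pools each). The log2 difference from the CTL group was 7.46 (standard error 0.265) in the COMB group, a 176-fold higher level, and 5.29 in the LPS group, a 39.0-fold higher level. It was 0.48 in the HPO group, or 1.40-fold. Without the CTL pool of rats 5, 6 and 7 these folds were 202, 44.9 and 1.61.

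Lcn2 stood higher again where hypoxia was added to LPS, while with hypoxia alone its pools overlapped the CTL pools. The COMB group was 2.17 above the LPS group on the log2 scale, or 4.50-fold, with no overlap, and the HPO group 0.48 above the CTL group. The difference of these differences, called the interaction here, was 1.69 (standard error 0.375). On the linear scale the COMB group lay 4383 above the CTL group, which was 4.56 times the sum of the single rises in the LPS and HPO groups. In all, 0.136% of probe sets passed the limma test for the interaction.

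Saa3 had the closest shape to Lcn2 among all genes compared. Its intensity was 3024, 3798 and 3444 in the COMB pools in the same order, 1759.7, 1422 and 1368 in the LPS pools, 87.1, 86.3 and 108 in the HPO pools and 77.6, 102 and 67.5 in the CTL pools. The HPO pools overlapped the CTL pools only through the CTL pool of rats 5, 6 and 7, and all LPS pools stood far above both. The means were 3422 ± 387 in the COMB group, 1517 ± 212 in the LPS group, 93.7 ± 12.1 in the HPO group and 82.4 ± 17.8 in the CTL group. The log2 difference from the CTL group was 5.37 (standard error 0.162, 41.5-fold) in the COMB group, 4.20 (18.3-fold) in the LPS group and 0.20 (1.15-fold) in the HPO group. Without the CTL pool of rats 5, 6 and 7 the folds were 46.4, 20.5 and 1.28. The step between the COMB and LPS groups was smaller than in Lcn2, at 1.18 (2.26-fold), and the interaction was 0.98 (standard error 0.229). The linear rise in the COMB group was 2.31 times the sum of the single rises. By size of difference, Saa3 had rank 3 of 12853 genes in the COMB group and rank 3 in the LPS group.

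Hp, the haemoglobin scavenger, differed from Lcn2 and Saa3 in the HPO group. Its intensity was 1018, 564 and 678 in the COMB pools, 346, 249 and 298 in the LPS pools, 122, 99.1 and 140.2 in the HPO pools and 41.7, 63.6 and 35.2 in the CTL pools. The 4 groups did not overlap, and each stood in a range of its own in the order COMB, LPS, HPO and CTL from high to low. The means were 754 ± 236 in the COMB group, 298 ± 48.8 in the LPS group, 120.3 ± 20.5 in the HPO group and 46.8 ± 14.9 in the CTL group. The log2 difference from the CTL group was 3.98 (standard error 0.246, 15.8-fold) in the COMB group, 2.67 (6.38-fold) in the LPS group and 1.37 (2.59-fold) in the HPO group. Without the CTL pool of rats 5, 6 and 7 these folds were 18.6, 7.54 and 3.06. The COMB group lay 1.30 above the LPS group (2.47-fold), close to the 1.37 by which the HPO group lay above the CTL group, so that the interaction was -0.07 (standard error 0.348). On the log2 scale the 2 single differences added up to about the combined one, with 67.2% of it seen in the LPS group and 34.5% in the HPO group. On the linear scale the COMB rise was 2.18 times their sum. In the HPO group Hp had rank 39 of 12853 genes by size of difference.

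Cp, the copper-carrying ferroxidase, was followed with its brightest probe set. Its intensity was 769.9, 387 and 450.1 in the COMB pools, 331, 206 and 220.3 in the LPS pools, 36.6, 30.4 and 44.7 in the HPO pools and 11.9, 34.2 and 16.5 in the CTL pools. The COMB and LPS pools were clear of the rest, while the CTL pool of rats 5, 6 and 7 lay inside the range of the HPO pools. The means were 536 ± 205 in the COMB group, 252 ± 68.5 in the LPS group, 37.2 ± 7.18 in the HPO group and 20.9 ± 11.7 in the CTL group. The log2 difference from the CTL group was 4.68 (standard error 0.346, 25.7-fold) in the COMB group, 3.63 (12.4-fold) in the LPS group and 0.92 (1.89-fold) in the HPO group. Without that CTL pool the folds were 34.1, 16.5 and 2.51. The other 2 CTL pools lay not far above the 20th percentile of an array, which was 10.1 to 11.3. With a pseudocount of 16 in place of 1, the differences in the COMB and LPS groups were 3.89 and 2.88. The COMB group lay 1.05 above the LPS group (2.07-fold) and the interaction was 0.13 (standard error 0.490).

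The other 2 probe sets of Cp gave the same order of groups but other sizes. The second had means of 259, 95.6, 42.4 and 31.6 in the COMB, LPS, HPO and CTL groups, and the third 118, 33.6, 14.7 and 12.4. Each had its COMB and LPS pools above all CTL pools, with overlap between the HPO and CTL pools. The difference between the LPS and CTL groups was 1.60 and 1.36 on these probe sets, or 3.02-fold and 2.57-fold, against 12.4-fold on the brightest. The difference between the COMB and CTL groups was 2.97 and 3.02. With these probe sets the COMB group lay 1.38 and 1.66 above the LPS group, and the interaction was 0.95 and 1.44, where the brightest gave 0.13. The order of the groups held for all 3 probe sets, and the share of the response that LPS alone gave did not.

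**Figure D2:**
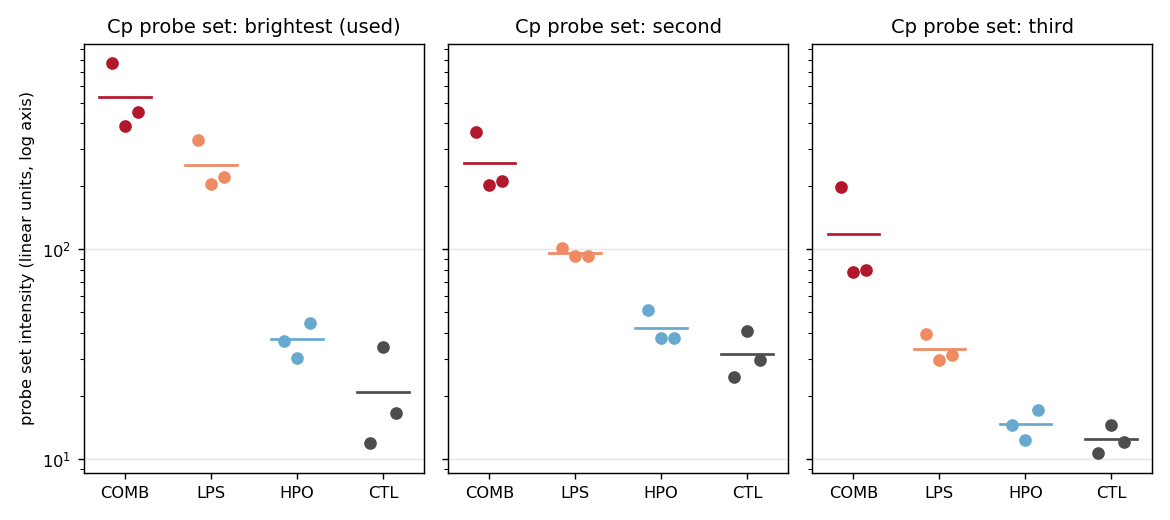
Intensity of the 3 probe sets that name Cp in each pool (log axis, linear units). Each point is 1 pool and each line the mean of 3 pools. The LPS pools lie nearer to the COMB pools on the brightest probe set (means 252 and 536) than on the third (means 33.6 and 118).

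Lbp, the carrier that hands LPS to its receptor, was dim outside the COMB group. Its intensity was 168, 132 and 83.1 in the COMB pools, 38.8, 26.9 and 26.5 in the LPS pools, 19.1, 22.4 and 23.6 in the HPO pools and 18.8, 16.2 and 12.0 in the CTL pools. The 20th percentile of an array lay between 10.1 and 11.3, so the CTL pools were only just above the limit set for testing. The groups did not overlap, but the lowest HPO pool and the highest CTL pool were 19.1 and 18.8. The means were 128 ± 42.7 in the COMB group, 30.7 ± 7.00 in the LPS group, 21.7 ± 2.33 in the HPO group and 15.7 ± 3.41 in the CTL group. The log2 difference from the CTL group was 2.91 (standard error 0.240, 7.53-fold) in the COMB group, 0.93 (1.90-fold) in the LPS group and 0.46 (1.38-fold) in the HPO group, and without the CTL pool of rats 5, 6 and 7 the folds were 7.70, 1.95 and 1.41. LPS alone gave 31.9% of the log2 difference, against 67.2% to 78.1% for the other 4 genes with the brightest probe set of Cp, and 53.7% and 45.1% on the other probe sets of Cp. The COMB group lay 1.98 above the LPS group (3.96-fold), the interaction was 1.52 (standard error 0.340) and the linear rise in the COMB group was 5.31 times the sum of the single rises. With a pseudocount of 16 in place of 1, the difference between the LPS and CTL groups was 0.56.

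**Figure D3:**
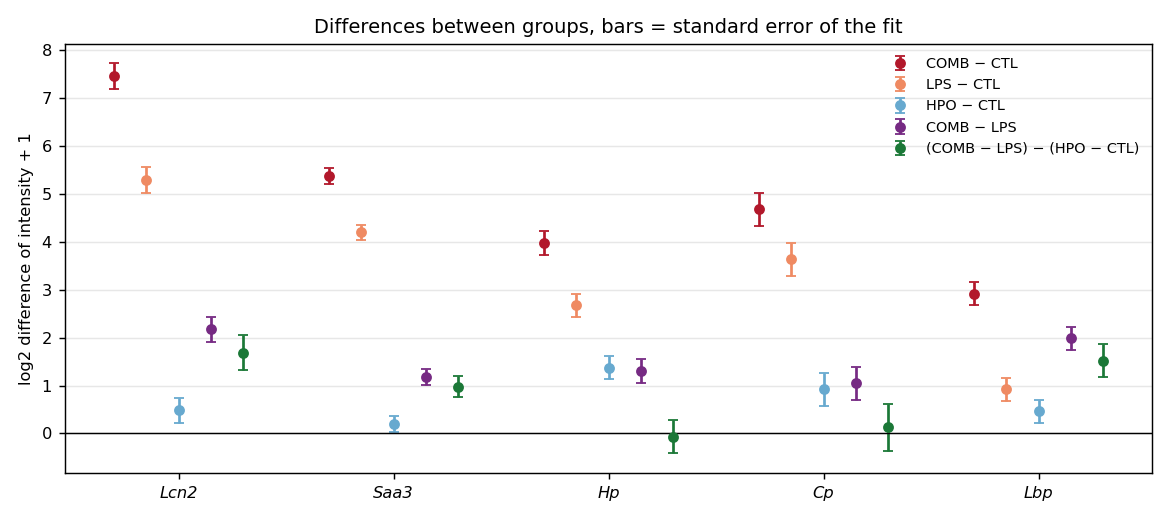
Differences of log2(intensity + 1) for each gene, with bars of 1 standard error from the limma fit over 12 arrays. Cp is shown with its brightest probe set. The difference between the COMB and CTL groups runs from 2.91 in Lbp to 7.46 in Lcn2. The interaction lies at 1.69, 0.98 and 1.52 for Lcn2, Saa3 and Lbp and at -0.07 and 0.13 for Hp and Cp. The other 2 probe sets of Cp, not shown, gave 0.95 and 1.44.

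In shape, and with Cp on its brightest probe set, Lcn2 and Saa3 lay closest to each other and Lbp farthest from the rest. Each gene was scaled on the log2 scale so that its CTL mean was 0 and its COMB mean 1, and 2 genes were compared by the mean absolute difference over the 12 pools. This distance was 0.0492 for Lcn2 and Saa3 and 0.0825 for Hp and Cp. Lbp stood at 0.171 to 0.196 from the other 4. Among 740 genes whose COMB mean was at least 1 above the CTL mean, the nearest to Lcn2 were Saa3, Rasa4 (0.0704), which codes for a Ras GTPase-activating protein, and Cp (0.0866). The nearest to Saa3 were Lcn2, Rasa4 (0.0828) and Rtp3 (0.0889). Hp lay nearest to Gpx2 (0.0452), a glutathione peroxidase, then to Bpifa5 (0.0743) and Cp, and Cp lay nearest to Gpx2 (0.0710), Hp and Lcn2. Lbp lay nearest to Cfap161 (0.0564), a protein of cilia, C7h22orf23 (0.0590) and Drc12 (0.0633). The distances are descriptions over 12 pools that share their arrays.

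**Figure D4:**
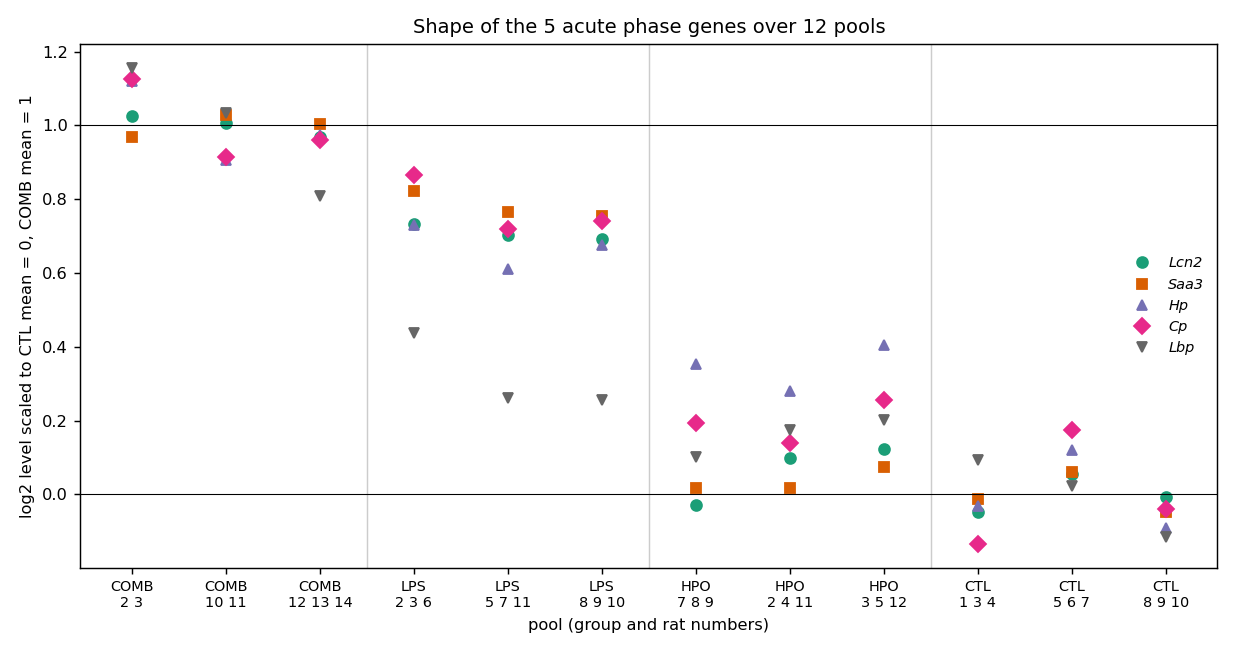
Level of each gene in the 12 pools, scaled on the log2 scale to a CTL mean of 0 and a COMB mean of 1, with Cp on its brightest probe set. In the LPS pools Lbp lies below the other 4 genes (31.9% of the COMB difference on average), and in the HPO pools Hp lies highest (34.5%).

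The pools of a group differed from each other in the same direction for most of the 5 genes. The LPS pool of rats 2, 3 and 6 was the highest LPS pool for all 5 genes, and the HPO pool of rats 3, 5 and 12 the highest HPO pool for all 5. The COMB pool of rats 2 and 3 was the highest for Lcn2, Hp, Cp and Lbp and the lowest for Saa3. The CTL pool of rats 5, 6 and 7 was the highest for 4 genes, all but Lbp. Each difference between the groups was recomputed after leaving out each pool in turn, and all 180 values moved by less than 1 SD between pools. Leaving out 1 of 3 pools moves a group mean by less than that pool's own deviation. A larger move was therefore unlikely from the outset, and little can be read from this result.

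Markers of several cell types also differed between the groups. Of 15 measured airway epithelial markers, 14 rose in the COMB group against the CTL group, 3 in the LPS group against the CTL group and 13 in the COMB group against the LPS group. Over all probe sets limma called 19.1%, 2.04% and 11.9% in these comparisons, in either direction. In the HPO group against the CTL group limma called 0 of the 15 (0.035% of all probe sets), with 12 at an unadjusted p under 0.05, and all 15 lay above 0. In the LPS group against the CTL group 11 of the 15 lay above 0. Krt8, Krt19, Tppp3 and Cyp2f4 lay below 0 there (-0.10, -0.55, -0.19 and -1.14), and none of them was called. They were named after their values were seen. The median log2 difference of the list from the CTL group was 2.10 in the COMB group, 0.53 in the LPS group and 1.00 in the HPO group. The summed intensity of the 15 markers was 19719.6 to 27388 in the COMB pools, 13627 to 14865 in the LPS pools, 14773 to 16488 in the HPO pools and 6363 to 9761 in the CTL pools. Among them Scgb1a1, the club cell secretoglobin, averaged 9964 in the COMB group, 8582 in the LPS group, 8193 in the HPO group and 5320 in the CTL group, and Muc5b, a secreted mucin, 2267, 474, 639 and 191. Scgb3a1, another secretoglobin, averaged 6165, 3845, 4299 and 1584 in the same order. Scgb1a1 and Scgb3a1 made up most of the sum in every group. The LPS and HPO groups overlapped in this sum. Within the COMB group the sum was 27388, 24196 and 19719.6 in the pools as listed for Lcn2. Within the HPO group it was 15348 in rats 7, 8 and 9, 16488 in rats 2, 4 and 11 and 14773 in rats 3, 5 and 12. Whether the order of these pools goes with that of the 5 genes was not tested.

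The neutrophil markers gave 2 that rose and 3 that fell of 10 tested in the COMB group against the CTL group. Over all probe sets limma called 19.1% in this comparison, in either direction. S100a8 and S100a9, the subunits of calprotectin, rose by 3.00 and 4.43, and Camp, Cxcr1 and Ncf1 fell. S100a9 was 3326, 4403 and 1819.8 in the COMB pools and 20.6, 2011 and 60.2 in the CTL pools, so that these groups overlapped through the CTL pool of rats 5, 6 and 7. Its difference was 6.36 with those rats left out and 3.09 with the CTL rats 1, 3 and 4 left out, and the call was lost in 3 of 6 such omissions (limma, highest adjusted p = 0.0962). S100a8, at 485 in the CTL rats 5, 6 and 7 and 79.5 and 49.1 in the other CTL pools, did not overlap, and its difference ran from 2.34 to 3.98 over these omissions with every call kept. The call for Cxcr1 was lost in 3 of 6 (highest adjusted p = 0.0766). Np4, a defensin of neutrophil granules, was below the limit for testing. Apart from S100a9 and Cxcr1, these were named after their values were seen. The summed intensity of 11 neutrophil markers was 6186 to 9672 in the COMB pools, 4331 to 5215 in the LPS pools, 3235 to 4078 in the HPO pools and 4199 to 6196 in the CTL pools. Fcgr3a, the marker of highest mean among them, made up much of this sum and was not called. Its means were 2636, 2878, 2593 and 2883 in the COMB, LPS, HPO and CTL groups. Alveolar macrophages are the main cell of normal lavage fluid, and their 9 markers, led by the mannose receptor Mrc1 (means of 6351, 7591, 6739.8 and 6156 in the COMB, LPS, HPO and CTL groups), summed to 16099.7 to 17066 in the COMB pools, 18007 to 20106 in the LPS pools, 16477 to 17205 in the HPO pools and 16233 to 17425 in the CTL pools. Of these 9, 1 rose and 1 fell in the COMB group against the CTL group, 1 fell in the LPS group, and 1 rose and 3 fell in the COMB group against the LPS group. Over all probe sets limma called 19.1%, 2.04% and 11.9% in these comparisons, in either direction. Pparg, a transcription factor of alveolar macrophages, fell by 1.47 in the COMB group (adjusted p = 2.98e-05), by 0.77 in the LPS group (adjusted p = 0.0120, lost in 3 of 6 omissions) and by 0.70 between the COMB and LPS groups (adjusted p = 0.00455). Car4, a carbonic anhydrase, rose by 3.18 in the COMB group (adjusted p = 0.0103), with overlap of the COMB and CTL pools and 2.38 to 4.13 over the omissions, and by 3.45 against the LPS group (adjusted p = 0.0113, 2.66 to 4.40 over the omissions). Fabp4 and Mertk fell by 1.08 and 0.43 against the LPS group (adjusted p = 0.0179 and 0.0397), calls lost in 2 and 4 of 6 omissions. These 4 were named after their values were seen.

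In the COMB group against the CTL group, to which the calls of this paragraph refer, limma called 19.1% of all probe sets. Of 6 monocyte markers tested, 3 rose. The sum over 8, with Ccr2 and F13a1 below the limit for testing, was 2512 to 4298 in the COMB pools, 888 to 1403 in the LPS pools, 432 to 637 in the HPO pools and 276 to 2213 in the CTL pools. Plac8, the brightest of them (mean of 1898 in the COMB group), overlapped the CTL pools and was not called (limma, adjusted p = 0.0972). Alveolar epithelial markers rose for 6 of 10 in the COMB group, with sums of 3610 to 4838 in the COMB pools, 2082 to 2873 in the LPS pools, 2328 to 2623 in the HPO pools and 1804 to 2716 in the CTL pools. Lymphocyte markers rose for 2 of 6, with sums of 503 to 3211 in the COMB pools, 197 to 389 in the LPS pools, 359 to 391 in the HPO pools and 226 to 626 in the CTL pools. Hepatocyte markers were dim in every group, with a sum over 10 genes of 138 to 148 in the COMB pools, 152 to 158 in the LPS pools, 134 to 162 in the HPO pools and 148 to 156 in the CTL pools, and of 7 tested 0 rose and 1 fell (limma, 1 at an unadjusted p under 0.05). Erythrocyte markers summed to 9696 to 12617 in the COMB pools and 2497 to 11815 in the CTL pools, with 0 of 2 called by limma (2 at an unadjusted p under 0.05). The part of any of these cell types in the levels of the 5 genes was not tested.

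**Figure D5:**
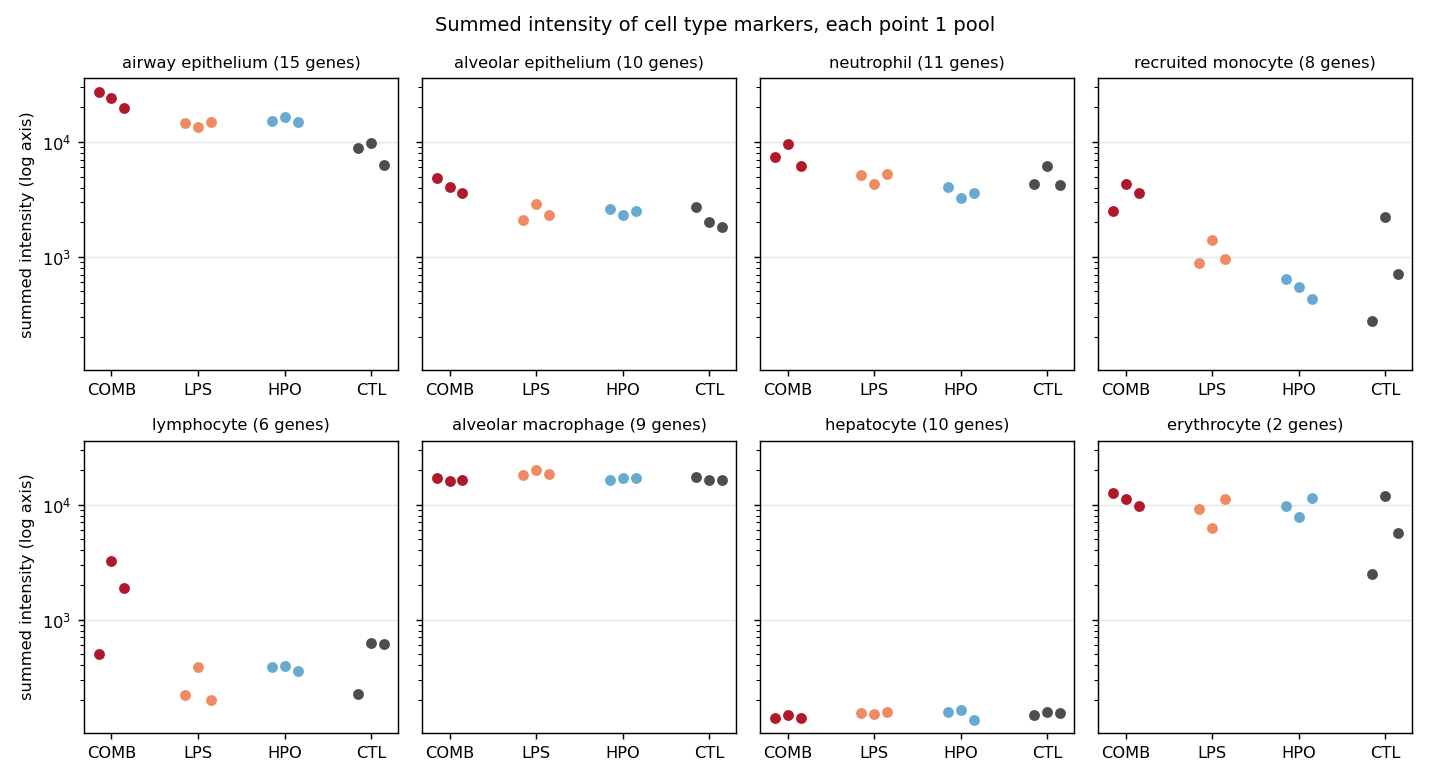
Summed intensity of the markers of 8 cell types (log axis, linear units), each point 1 pool of the COMB, LPS, HPO and CTL groups. Airway epithelial sums lie at 19719.6 to 27388 in the COMB group and 6363 to 9761 in the CTL group, while hepatocyte sums stay between 134 and 162 in every pool.

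Part of the wider acute phase list rose in the COMB group with the 5 genes. Of 24 other positive acute phase genes tested, limma called 8 higher and 0 lower in the COMB group against the CTL group (median log2 difference 0.28, against -0.04 over all probe sets), 1 in the LPS group (median 0.19) and 4 in the COMB group against the LPS group. It called 0 in the HPO group, where 3 had an unadjusted p under 0.05, and 0 in the interaction, where 2 did. Over all probe sets limma called 19.1% (COMB against CTL), 2.04% (LPS), 11.9% (COMB against LPS), 0.035% (HPO) and 0.136% (interaction), in either direction. With the methods' t-test, run unpaired, after Benjamini-Hochberg adjustment, 1 passed in the COMB group against the CTL group and 0 in the other comparisons tried. C3, the central complement component, was 3311, 2796 and 1818 in the COMB pools, 779.6, 424 and 460.3 in the LPS pools, 249, 252 and 392 in the HPO pools and 48.0, 126 and 93.6 in the CTL pools. The COMB pools stood above the LPS pools, as for the 5 genes above, and the HPO pools above the CTL pools. The difference was 4.94 in the COMB group (limma, adjusted p = 8.84e-06), 2.68 in the LPS group (adjusted p = 0.00462) and 2.26 between the COMB and LPS groups (adjusted p = 0.00246).

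Serping1, the inhibitor of the first complement component, rose by 3.80 in the COMB group (limma, adjusted p = 5.25e-04), Pla2g2a, a secreted phospholipase A2 that kills bacteria, by 3.00 (adjusted p = 0.00193) and Orm1, the alpha-1-acid glycoprotein, by 2.01 (adjusted p = 0.00267). C9, the last component of the complement pore, rose by 1.58 (adjusted p = 4.54e-04) and Mt2A, a metallothionein, by 1.45 (adjusted p = 0.00154). Steap4 (1.37, adjusted p = 0.0212) and C4bpa (1.18, adjusted p = 0.0345) also passed. Mt1, another metallothionein on the list, did not (-0.09, adjusted p = 0.736). The call for C4bpa was lost when any 1 CTL pool was left out (limma, adjusted p = 0.0734, 0.0802 and 0.0972), and its difference was 0.62 without the COMB pool of rats 2 and 3. The call for Steap4 was lost when the CTL pool of rats 1, 3 and 4 (0.0893) or 8, 9 and 10 (0.0890) or the COMB pool of rats 10 and 11 (0.0652) or 12, 13 and 14 (0.0685) was left out. Serping1 differed by 3.10 when the CTL rats 1, 3 and 4 were left out. Against the LPS group the COMB group was higher in Serping1 (2.41, adjusted p = 0.0133), C9 (0.88, adjusted p = 0.0217) and Mt2A (0.81, adjusted p = 0.0498). The last of these was lost without 5 of the 6 single pools, with a highest adjusted p of 0.137 and a difference of 0.50 without the COMB pool of rats 12, 13 and 14. The call for C9 was lost without the LPS pools of rats 5, 7 and 11 (0.0772) or 8, 9 and 10 (0.0770), and that for Serping1 without the LPS pool of rats 5, 7 and 11 (0.0535).

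Several plasma proteins of the classic liver response were dim here. A2m, the main rat acute phase globulin, averaged 14.7, 9.38, 8.56 and 9.48 in the COMB, LPS, HPO and CTL groups and Fgb 8.69, 8.79, 8.94 and 9.86, both below the limit for testing. Crp, Apcs, Fga, Fgg, Hpx, Hamp, Itih3, Itih4 and Serpina1 were tested and not called. Serpina3n was 509, 21.9 and 64.1 in the COMB pools and 20.5, 21.6 and 16.8 in the CTL pools. Its difference of 2.15 did not pass (limma, adjusted p = 0.111). Lrg1 was not dim, with means of 1192, 1168, 1030 and 1149 in the COMB, LPS, HPO and CTL groups. It had a difference of 0.06 in the COMB group (adjusted p = 0.817). Of 6 negative acute phase genes, which the liver lowers in inflammation, Rbp4 rose by 1.06 in the COMB group (adjusted p = 0.0361) and Igf1 fell by 0.55 (adjusted p = 0.0103). Over all probe sets limma called 19.1% in this comparison, in either direction. The call for Rbp4 was lost without the CTL pool of rats 1, 3 and 4 (adjusted p = 0.110) or 8, 9 and 10 (0.110) or the COMB pool of rats 2 and 3 (0.112) or 10 and 11 (0.110). Alb, albumin, had a difference of 0.24 and Ttr, transthyretin, of -0.16, and neither passed. In the other 4 comparisons limma called 0 of these 6, with 0, 1, 3 and 0 at an unadjusted p under 0.05 in the LPS group against the CTL group, the HPO group against the CTL group, the COMB group against the LPS group and the interaction.

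Of the cytokines that drive the response, Il1a, Il1b and Tnf rose in the COMB group and Il6 was too dim to test. Il6 averaged 9.41, 7.29, 7.62 and 7.52 in the COMB, LPS, HPO and CTL groups, below the limit for testing. Of 20 inducers and regulators tested, limma called 10 higher and 3 lower in the COMB group against the CTL group (median 0.38), 2 higher in the LPS group, 5 higher in the COMB group against the LPS group and 0 in the HPO group, where 4 had an unadjusted p under 0.05. Over all probe sets it called 19.1%, 2.04%, 11.9% and 0.035% in these comparisons, in either direction. The methods' t-test after adjustment called 0 of the 20 in each of the 4 comparisons between groups, and 14 without adjustment in the COMB group against the CTL group. Il1a was 961, 1608 and 1312 in the COMB pools, 261, 277 and 248 in the LPS pools, 49.8, 51.8 and 46.2 in the HPO pools and 51.0, 147 and 81.5 in the CTL pools. Its difference was 3.88 in the COMB group (adjusted p = 1.41e-05), and the COMB group lay 2.27 above the LPS group (adjusted p = 0.00107). In the LPS group it was 1.61 (adjusted p = 0.0210), a call lost without 5 of the 6 single pools (limma, highest adjusted p = 0.0978) and kept without the CTL pool of rats 5, 6 and 7. Tnf rose by 2.58 in the COMB group (adjusted p = 6.23e-05) and was 1.80 above the LPS group (adjusted p = 0.00157).

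Il1b rose by 3.21 in the COMB group (adjusted p = 0.00641), with 4.32 when the CTL pool of rats 5, 6 and 7 was left out and 2.58 when that of rats 1, 3 and 4 was. Il1r2, the decoy receptor of IL-1, rose by 3.38 (adjusted p = 0.0131), a call lost when the CTL pool of rats 1, 3 and 4 (0.0608) or 8, 9 and 10 (0.0618) was left out. Its difference was 4.44 if the CTL rats 5, 6 and 7 were left out, 3.99 if the COMB rats 2 and 3 were and 2.64 if the COMB rats 10 and 11 were. Among the transcription factors and their partners, Bcl3 and Nfkbiz, both atypical IkB proteins, rose by 2.42 (adjusted p = 0.00428) and 2.40 (adjusted p = 1.33e-04), and Nfkb2 by 1.08 (adjusted p = 0.00268), Bcl3 being at 3.02 without the CTL pool of rats 5, 6 and 7. Smaller rises were seen in Stat3 (0.75, adjusted p = 0.0116), Cebpd (0.73, adjusted p = 0.00221) and Nfkb1 (0.38, adjusted p = 0.0330). Cebpa fell by 0.73 (adjusted p = 0.0207), Il6r by 0.59 (adjusted p = 0.0131) and Cebpb by 0.30 (adjusted p = 0.0284). The calls for Nfkb1, Cebpa and Cebpb were lost without 3, 2 and 5 of the 6 single pools, with highest adjusted p-values of 0.120, 0.0876 and 0.0974. Nfkbiz was also called in the LPS group (1.31, adjusted p = 0.0329), which was lost without 4 of the 6 pools (highest adjusted p = 0.134). Against the LPS group, Bcl3 (1.93, adjusted p = 0.0234), Nfkbiz (1.09, adjusted p = 0.0220) and Nfkb2 (0.89, adjusted p = 0.0140) were higher in the COMB group, calls lost without 5, 4 and 2 of 6 pools, with highest adjusted p-values of 0.0843, 0.0900 and 0.0609.

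Receptors and partners of the 5 proteins moved in both directions. Of 18 tested, limma called 4 higher and 4 lower in the COMB group against the CTL group (median 0.06), 1 higher in the LPS group, 4 higher and 3 lower in the COMB group against the LPS group, and 0 in the HPO group, where 3 had an unadjusted p under 0.05. Over all probe sets it called 19.1%, 2.04%, 11.9% and 0.035% in these comparisons, in either direction. With the methods' t-test after adjustment, 1 of the 18 passed in the COMB group against the CTL group and 0 in the others. For Lbp, its acceptor Cd14 was 1749.5, 2243 and 2963 in the COMB pools, 1375, 1675 and 1177 in the LPS pools, 553, 547 and 393 in the HPO pools and 289.8, 564 and 314 in the CTL pools. All COMB pools lay above all LPS pools, and these above the other groups. Cd14 rose by 2.60 in the COMB group (adjusted p = 6.81e-05) and by 1.90 in the LPS group (adjusted p = 0.00538), and its difference between the COMB and LPS groups, 0.70, did not pass (adjusted p = 0.104). Tlr2, a receptor that CD14 also serves, rose by 1.67 (adjusted p = 8.84e-05). Tlr4 (0.31, adjusted p = 0.0787), its partner Ly96 (-0.13, adjusted p = 0.349) and the adaptor Myd88 (0.29, adjusted p = 0.0795) did not pass in the COMB group against the CTL group. Myd88 passed in the COMB group against the LPS group (0.37, adjusted p = 0.0431), but not without any 1 of the 6 pools (lowest adjusted p = 0.0515).

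For Lcn2, the partner Mmp9, a gelatinase that binds LCN2, was 57.2, 93.8 and 88.7 in the COMB pools, 13.2, 22.1 and 19.3 in the LPS pools, 12.2, 15.7 and 10.5 in the HPO pools and 10.3, 25.3 and 13.5 in the CTL pools. Only the COMB pools stood apart from the rest. It rose by 2.28 in the COMB group (adjusted p = 3.62e-04) and by 2.07 against the LPS group (adjusted p = 0.00178). Slc22a17, a receptor of LCN2, fell by 0.56 in the COMB group (adjusted p = 0.0253), a call lost when the CTL pool of rats 1, 3 and 4 (0.109) or 8, 9 and 10 (0.0656) was left out, or the COMB pool of rats 12, 13 and 14 (0.0953). Lrp2, another receptor (0.10, adjusted p = 0.568), and Bdh2, an enzyme of the mammalian siderophore (0.03, adjusted p = 0.890), did not pass.

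For Hp, the macrophage receptor Cd163 was below the limit for testing, with 84.3 in the CTL pool of rats 5, 6 and 7 and between 7.59 and 11.9 in all other pools. Lrp1, a receptor of the haem carrier hemopexin, fell by 0.44 in the COMB group (adjusted p = 0.00341) and was 0.36 below the LPS group (adjusted p = 0.0171), the second of these not called without the LPS pools of rats 2, 3 and 6 (0.0572) or 5, 7 and 11 (0.0621). Hmox1, the haem oxygenase, had a difference of -0.29 in the COMB group (adjusted p = 0.0869). For Cp, the iron importer Slc11a2 rose by 2.32 in the COMB group (adjusted p = 3.14e-05) and was 1.58 above the LPS group (adjusted p = 9.79e-04). Heph, the other copper ferroxidase, fell by 1.45 in the COMB group (adjusted p = 0.0316) and was 1.46 below the LPS group (adjusted p = 0.0446). Each of these was lost without 4 of the 6 single pools, with highest adjusted p-values of 0.120 and 0.139. The exporter Slc40a1 (-0.73, adjusted p = 0.0815) and the transferrin receptor Tfrc (0.57, adjusted p = 0.0537) did not pass. Among the receptors of serum amyloid A, Cd36 fell by 0.83 in the COMB group (adjusted p = 0.00102) and was 0.82 below the LPS group (adjusted p = 0.00261), and Scarb1 (-0.34, adjusted p = 0.290) and Ager (0.35, adjusted p = 0.191) did not pass.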

How the data were processed

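RNA of BALF cells, pooled within each group, was hybridised by the authors to 12 Affymetrix rat arrays, 3 per group. The deposited values are linear intensities, 1 for each probe set of each array. The study's methods name the array software and a filter at the 20th percentile, and the method of normalization is not given in the sources used here. All 31099 probe sets were deposited, without detection calls, and 0 pairs of arrays were identical. Gene names come from the platform annotation and RefSeq. In it, 20832 probe sets name 1 gene, 436 several and 9831 none.

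Intensities were used as log2(intensity + 1). The 57 controls were left out, and testing was kept to the 25692 probe sets (82.6%) that 3 or more arrays showed above their 20th percentile. Group means were fitted to the 12 arrays with limma 3.58.1, which had 8 residual and 3.94 prior degrees of freedom (R 4.3.3, files read with data.table, version 1.17.8). Benjamini-Hochberg adjustment of its p-values took in every probe set tested, and 0.05 was the threshold. The interaction is (COMB minus LPS) minus (HPO minus CTL). The fit was tested on simulated data. A gene was represented by its probe set of highest mean intensity among those naming it alone (12853 genes tested). The RNA of a pool is 1 replicate, and the 3 arrays per group limit the precision.

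The members, the 12 gene lists and the tests were chosen with earlier results of these data known. Of 170 listed genes, 145 were matched, and the rest are not analysed here. The text names all members, and of each pathway list the called genes (up to 8 per direction in the COMB group against the CTL group and in the LPS group, up to 6 in the COMB group against the LPS group), all genes called in the HPO group or the interaction, every measured receptor or partner and the 3 genes of most similar shape per member. Of the markers of highest intensity in the cell type lists it names only some. Cebpd and Nfkb1 lie outside this limit and were added after their values were seen. Genes named as dim or as not called were picked from the lists after their values were seen. Alternatives were quantile normalization, centring, a pseudocount of 16, other filters, array weights, 1 probe set per gene, fits of only 2 groups, means of linear values, the methods' t-test, the other probe sets of Cp and the omission of each array. The methods name Student's test, a paired test for the genes used in clustering and a fold criterion for differential genes. The methods' t-test here is Student's test without pairing, since the labels pair no pools. The omission of arrays for the neutrophil and macrophage markers was chosen after seeing the data.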

Additional observations from a re-analysis of the deposited data

Results flagged for a closer look

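In 3 genes named above, the effect of LPS differed between hypoxia and normoxia by a test of the difference itself, the limma interaction. That test called 0.136% of all probe sets tested. Each gene is given by its probe set of highest mean. Il1a and Tnf have 2 probe sets each, and the second of each is not given here. For Il1a, the cytokine interleukin-1 alpha, the interaction was 3.05 on the log2 scale (limma, adjusted p = 0.0206). The COMB group averaged 1294 ± 324 and the LPS group 262 ± 14.6, against 49.3 ± 2.84 in the HPO group and 93.3 ± 49.2 in the CTL group (SD, n = 3 pools each). For Tnf it was 2.28 (limma, adjusted p = 0.0396), with 361 ± 121, 99.3 ± 9.07, 42.1 ± 11.8 and 58.2 ± 11.3 in the same order of groups. For Tlr2, a receptor of bacterial lipoproteins, it was 1.72 (limma, adjusted p = 0.0261), with 346 ± 28.0, 162 ± 8.66, 69.3 ± 5.64 and 111 ± 34.1.

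In each of the 3 genes the COMB group lay above the LPS group, and the HPO mean below the CTL mean. Leaving out single pools ended these calls for Il1a in 7 of 12 omissions (highest adjusted p = 0.0848), for Tnf in 8 of 12 (highest 0.125) and for Tlr2 in 6 of 12 (highest 0.0953), all in limma. When the CTL pool with a high sum of monocyte markers and high Il1b (rats 5, 6 and 7) was omitted, Il1a and Tlr2 kept the call and Tnf did not (adjusted p = 0.100). Over the other alternatives the adjusted p ran from 0.00106 to 0.0259 for Il1a, from 0.00454 to 0.0445 for Tnf and from 0.00845 to 0.0300 for Tlr2.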

How the results depend on the processing

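All 5 genes kept the order of the COMB, LPS and CTL groups under every alternative tried. Of 110 recomputed values of theirs, 92 moved by less than 1 SD between pools. So did all 180 with 1 pool left out, where a larger move was unlikely from the outset. The others of the 110 follow. With a pseudocount of 16, the differences of the COMB and the LPS group from the CTL group were 6.77 and 4.62 for Lcn2, 5.14 and 3.97 for Saa3, 3.89 and 2.88 for Cp and 2.14 and 0.56 for Lbp, that of the COMB group was 3.60 for Hp, and the COMB group lay 1.58 above the LPS group for Lbp. The interaction of Hp, -0.07, was 0.13 there, within its standard error. The second probe set of Cp gave 2.97 (COMB minus CTL), 1.60 (LPS minus CTL) and 0.95 (interaction), and the third 3.02, 1.36, 0.22 (HPO minus CTL), 1.66 (COMB minus LPS) and 1.44 (interaction).

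Counts of calls over all probe sets depended more on the setting. With 1 probe set per gene they were 3003 for the COMB group against the CTL group, 1890 against the LPS group and 1 for the HPO group. With array weights they were 3702 for the LPS group, 3576 for the HPO group, 4635 for the COMB group against the LPS group and 2116 for the interaction, the HPO pool of rats 7, 8 and 9 having a weight of 6.38 and that of rats 3, 5 and 12 of 0.226. A filter at the median gave 14 for the HPO group and 56 for the interaction, a pseudocount of 16 gave 5 and 78, and quantile normalization 83 for the interaction. Fits of 2 groups gave 1147 for the LPS group, 63 for the HPO group and 1734 for the COMB group against the LPS group. The methods' t-test after adjustment gave 544 for the COMB group, 1 for the LPS group, 0 for the HPO group and 14 for the COMB group against the LPS group, and without adjustment 4425 for the LPS group, 2225 for the HPO group and 5843 for the COMB group against the LPS group. Higher calls were 41.7% of those between the COMB and LPS groups with quantile normalization, against 55.8%, and 47.0% of the interaction, against 65.7%. Centring gave 88.9% for the HPO group, against 100%. With 1 pool left out, the counts ran from 3106 to 4946 (COMB against CTL), 64 to 445 (LPS), 0 to 12 (HPO), 1526 to 3321 (COMB against LPS) and 2 to 643 (interaction). The cause of these shifts was not tested.

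In the lists, counts of called genes moved as follows. For the positive acute phase genes, array weights gave 6 in the LPS group, 2 in the HPO group and 1 in the interaction, fits of 2 groups gave 5 in the LPS group and 2 in the COMB group against the LPS group, and the t-test gave 1 (COMB), 0 (LPS) and 0 (COMB against LPS) after adjustment and 5 (LPS) and 2 (HPO) before it. For the negative acute phase genes, array weights gave 2 in the HPO group, the COMB count was 1 with fits of 2 groups, a pseudocount of 16 or the unadjusted t-test and 0 with the adjusted one, and the unadjusted t-test gave 1 in the HPO group. For the inducers and regulators, array weights gave 8 in the LPS group, 2 in the HPO group and 5 in the interaction, and the t-test gave 0 in the COMB group, 0 in the LPS group and 0 in the COMB group against the LPS group after adjustment and 8 (LPS), 2 (HPO) and 8 (COMB against LPS) before it. For the receptors and partners, the LPS count was 3 with 1 probe set per gene or a filter at the median, 2 with a pseudocount of 16, 4 with quantile normalization, 5 with fits of 2 groups, 8 with array weights, 9 with the unadjusted t-test and 0 with the adjusted one. Their HPO count was 1 with centring or the unadjusted t-test and 2 with array weights, their interaction count 2 with a pseudocount of 16 and 6 with array weights, and their counts after the adjusted t-test 1 in the COMB group and 0 in the COMB group against the LPS group. With 1 pool left out the ranges were 1 to 5 (positive, COMB against LPS), 0 to 1 (positive, interaction), 1 to 2 (negative, COMB), 0 to 1 (negative, COMB against LPS), 0 to 4 (inducers, LPS), 2 to 5 (inducers, COMB against LPS), 0 to 4 (inducers, interaction), 1 to 3 (receptors, LPS), 4 to 6 (receptors, COMB against LPS) and 0 to 5 (receptors, interaction).

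Of 530 recomputed values of named list genes, 452 kept direction and call, 78 lost the call and 0 changed direction, and of 342 with 1 pool left out, 251 and 91 with 0 changed. No paired analysis was possible because the labels pair no rats across groups, and any 2 groups share at most 1 set of rat numbers.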

Other observations

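The genes nearest in shape to the 5 acute phase genes spanned wide ranges. Gpx2, a glutathione peroxidase of epithelia, averaged 3527 ± 879 in the COMB group, 1399 ± 186 in the LPS group, 453 ± 88.9 in the HPO group and 188 ± 57.1 in the CTL group (SD, n = 3 pools each). Bpifa5, a secreted protein of the BPI fold family, averaged 1144 ± 540 in the COMB group, 519 ± 72.6 in the LPS group, 299 ± 25.3 in the HPO group and 168 ± 33.97 in the CTL group. Drc12, named for the dynein regulatory complex of cilia, averaged 599 ± 157 in the COMB group, 137 ± 26.7 in the LPS group, 99.9 ± 7.11 in the HPO group and 66.7 ± 7.38 in the CTL group. All 3 were chosen for their likeness to Hp or Lbp, so no test is given.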
